A study of Mus musculus with 8 samples.

Results

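The collagens and stromal matrix genes described here are 40 genes of the extracellular matrix, the protein scaffold around cells, with the intermediate filament gene Vim beside them. Members were the non-control array rows whose gene name is on that list: 65 spots of 56 probes, out of 55681 probes for 34817 gene names in all. Their mRNA was read on arrays of MAM326 cells, a line from a mouse mammary tumour, which had been seeded and, after 2 days, sorted by fluorescence into GFP-positive and GFP-negative fractions. Each group had 4 one-colour arrays, both from the same line in the same medium, with no treatment named besides harvest and sorting. Sorting was done in 4 independent experiments on cells of different passages, but no label ties an array to an experiment, and each p-value therefore measures the variation among these arrays alone. The sources used here do not say what drives GFP in this line.

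Fibrillar collagens form the load-bearing fibres of connective tissue, while type IV collagen, laminins, nidogens and perlecan build the sheet-like basement membrane under epithelia. Prolyl and lysyl hydroxylases modify collagen chains inside the cell, and lysyl oxidases cross-link them outside it. Fibroblasts are the main producers of fibrillar collagen in the mammary gland, and cancer cells with mesenchymal traits can make these transcripts too. The arrays read the RNA of a cell population, so fewer cells making a transcript and less of it per cell cannot be told apart.

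A level is the log2 of the processed signal relative to the 75th percentile of its array, so that 1 unit is a doubling, and levels of different probes are not set against each other. Of the 40 genes, 36 had a probe that was well above background on 4 or more of the 8 arrays and were tested. GFP-positive was compared with GFP-negative by limma over 19716 genes at a Benjamini-Hochberg adjusted p of 0.05. Of these, 359 were higher and 146 lower in GFP-positive cells, 2.56% in all. That split was 425 and 362 with normexp background correction, 337 and 82 with quantile normalization, and 465 and 64 with the 75th percentile taken over probes detected on all arrays. Between 45.1% and 57.4% of probes per array were well above background. All 16 epithelial markers looked up, Epcam, Krt8 and Krt18 among them, were well above background on all 8 arrays.

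Among the matrix genes, Col18a1 rose in GFP-positive cells and no member fell. The share called higher among all genes was 1.82%, and the share called lower was 0.741%. At an unadjusted p under 0.05 in limma, Col18a1 and Fbln2 were higher and Dcn and Lamc1 lower, where 23% of all genes reached that level in either direction. The difference was negative for 27 members and positive for 9, and over all genes it was negative for 11963 and positive for 7753. Its median was -0.25 over the members and -0.06 over all genes. Col18a1 was also the sole member whose GFP-positive and GFP-negative arrays did not overlap, 2.78% of members against 16.7% of all genes.

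**Figure D1:**
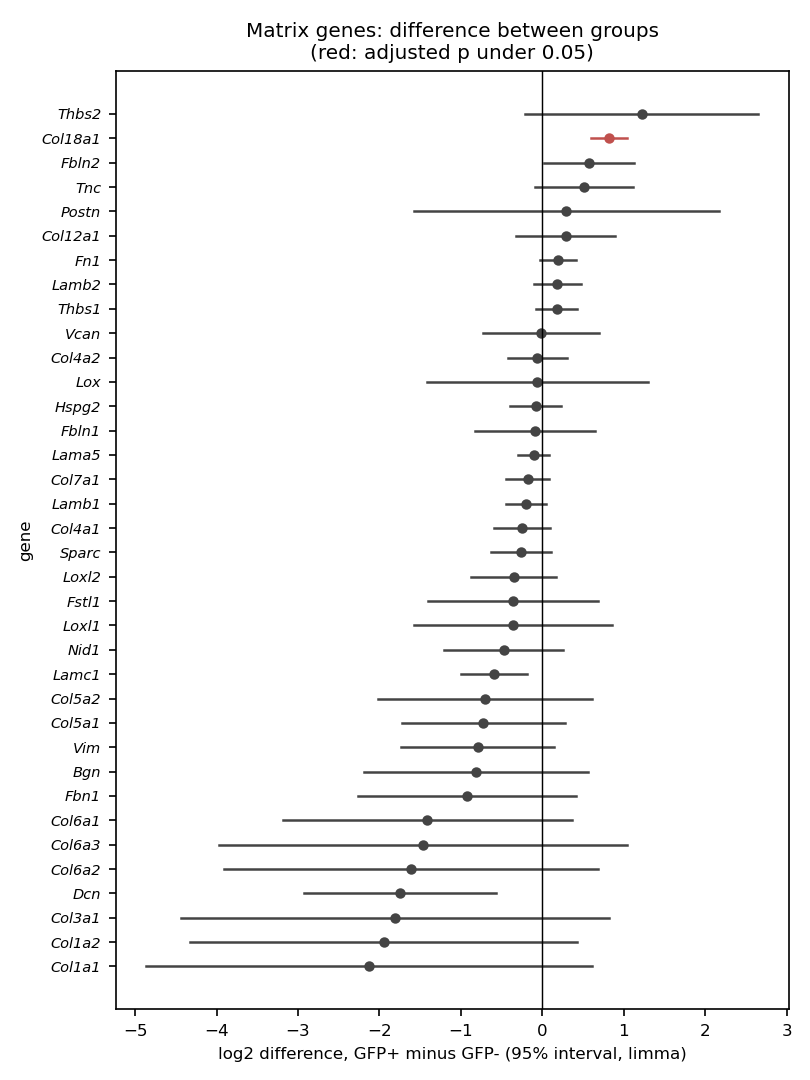
Log2 difference, GFP-positive minus GFP-negative, for the 36 tested matrix genes (points) with 95% intervals from limma (lines), 4 arrays against 4. Col18a1 (red, 0.82) is the member with an adjusted p under 0.05, and the widest interval is that of Col1a1, from -4.86 to 0.62.

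Col18a1 encodes the chain of collagen XVIII, a basement membrane collagen that also carries heparan sulfate and whose end fragment is endostatin. Its level was 4.23, 4.45, 4.54 and 4.49 on GFP-negative replicates 1 to 4, and 5.34, 5.29, 5.28 and 5.08 on the GFP-positive ones. All 4 GFP-positive arrays were above all 4 GFP-negative arrays. The difference was 0.82 ± 0.10 (SE), a 1.77-fold rise with a 95% interval of 1.52 to 2.06, and the adjusted p was 0.00528. When limma was run with replicate number as a block, Col18a1 did not pass (adjusted p = 0.0546). Within slide row 1, 2 arrays against 2, the difference was 0.84 (adjusted p = 0.0362), and within row 2 it was 0.80 (adjusted p = 0.394), a fit that called no gene. The probe lies at chr10:76514926-76514985 on the minus strand (build mm9). A second Col18a1 probe at chr10:76515790-76515849 gave 0.91 ± 0.10, with an adjusted p of 0.00501 in the fit over 27600 probes, where 2% of probes were called.

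The type IV collagen chains, which form the basement membrane network, did not pass the test. Col4a1, read by 10 spots per array, had a difference of -0.25 ± 0.15 (95% interval -0.59 to 0.09). Col4a2, its head-to-head neighbour in the genome, had -0.06 ± 0.16 (95% interval -0.42 to 0.30). On GFP-negative replicate 4 the Col4a2 level was 1.69, while the other three GFP-negative arrays lay between 1.09 and 1.17. Repeat spots of the Col4a1 probe varied by an SD of 0.034 to 0.064 within an array, against 0.22 between arrays of one group.

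The fibrillar collagens had large differences between group means and wide spreads within groups. Col1a1, the main chain of type I collagen, was at 1.64, 5.94, 4.95 and 5.03 on GFP-negative replicates 1 to 4 and at 2.11, 3.32, -0.44 and 4.08 on GFP-positive replicates 1 to 4. GFP-negative replicate 1 lay below 3 of the 4 GFP-positive arrays, and GFP-positive replicate 3 lay below all others. The signal of its probe, at chr11:94813115-94813174 on the plus strand (mm9), ranged 83.4-fold over the 8 arrays. The difference was -2.12 ± 1.19, a ratio of 0.23 with a 95% interval of 0.0344 to 1.53, and the adjusted p was 0.325.

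Col1a2, the partner chain of Col1a1, was at 3.14, 6.61, 5.96 and 6.25 on the GFP-negative arrays and at 3.25, 4.49, 1.19 and 5.23 on the GFP-positive ones. Col3a1, the chain of type III collagen found with type I in soft tissue, was at -2.44, 1.93, 0.69 and 1.12 and at -1.54, -0.61, -3.95 and 0.19. In both, GFP-negative replicate 1 again fell among the GFP-positive arrays and GFP-positive replicate 3 was lowest. The differences were -1.95 ± 1.03 for Col1a2 (adjusted p = 0.299) and -1.81 ± 1.14 for Col3a1 (adjusted p = 0.38).

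Type V collagen nucleates type I fibrils. Its chain Col5a1 was at 2.06, 3.44, 2.55 and 3.17 on the GFP-negative arrays and at 1.96, 2.38, 1.07 and 2.92 on the GFP-positive ones, a difference of -0.72 ± 0.44 (adjusted p = 0.357). Col5a2, next to Col3a1 in the genome, had a difference of -0.70 ± 0.57 and ranged 5.12-fold over the arrays. The groups overlapped for all 5 fibrillar chains.

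Type VI collagen forms beaded filaments near the cell surface and is classically built from the chains of Col6a1, Col6a2 and Col6a3. Col6a1 was at 2.86, 5.57, 4.40 and 5.05 on GFP-negative replicates 1 to 4 and at 2.85, 3.72, 1.31 and 4.37 on the GFP-positive ones. Col6a2, its neighbour on chromosome 10, was at -1.62, 2.03, 0.69 and 0.93 and at -1.24, -0.71, -3.30 and 0.83. Col6a3 was at -4.16, 0.22, -0.84 and -0.37 and at -3.00, -1.92, -4.81 and -1.28.

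In all 3 type VI chains, GFP-negative replicate 1 and GFP-positive replicate 3 were the lowest arrays of their groups and GFP-negative replicate 2 was the highest array. Their differences were -1.41 ± 0.77, -1.61 ± 1.00 and -1.47 ± 1.09, with adjusted p of 0.312, 0.369 and 0.458. Col6a1 and Col18a1 have 2 protein-coding genes between them on chromosome 10. Col7a1, the anchoring fibril collagen, and Col12a1, a collagen that decorates fibrils, had differences of -0.18 ± 0.11 and 0.29 ± 0.27, and neither passed the test.

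**Figure D2:**
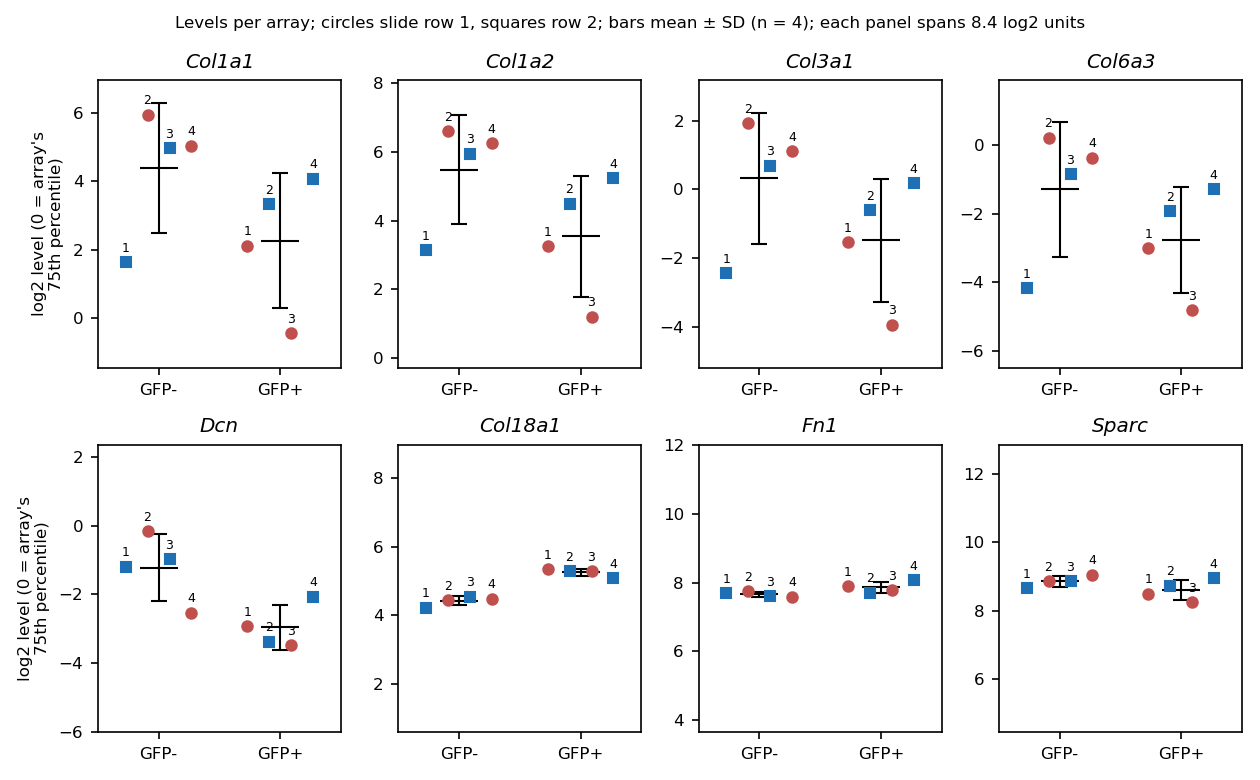
Log2 level on each array (points, numbered by replicate; circles slide row 1, squares slide row 2) of 8 matrix genes by GFP group, with mean and SD (n = 4) as bars. Col1a1, Col1a2, Col3a1 and Col6a3 spread widely within both groups, Col18a1 separates the groups, and Fn1 and Sparc vary little on the scale of these panels. The pooled SD of Sparc, 0.24, was still above the median of 0.11 for genes of similar level.

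Laminins are the heterotrimers that polymerise into the first layer of a basement membrane. Lamc1, the gamma chain shared by most laminins, had a difference of -0.59 ± 0.18, a ratio of 0.664 (95% interval 0.501 to 0.88), with an adjusted p of 0.107. Lama5, Lamb1 and Lamb2 had differences of -0.10 ± 0.08, -0.20 ± 0.11 and 0.19 ± 0.13. Nid1, which links laminin to type IV collagen, had -0.47 ± 0.31, and Hspg2, which encodes perlecan, had -0.08 ± 0.14. None of these 6 passed the test.

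Lama4 and Nid2 were not tested. Lama4 was well above background on 2 GFP-negative arrays and on no GFP-positive array, with mean levels of -4.78 and -6.32. Its GFP-negative mean was 2.19-fold above the detection limit of the GFP-positive arrays, without a test. The groups overlapped, with GFP-positive replicate 4 (-5.073) just above GFP-negative replicate 3 (-5.077). Nid2 was above background on 1 GFP-negative array and on no GFP-positive array, with means of -5.82 and -6.22. Such a ratio sets the brighter group's mean, undetected arrays included, against the detection limit of the dimmer group's arrays, or its own signal where that was higher. It takes no account of the spread between arrays and is no lower bound.

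Fibronectin and the matricellular proteins, which modulate how cells hold the matrix, were split. Fn1 had a difference of 0.20 ± 0.09 (95% interval -0.02 to 0.42). Thbs1 had 0.18 ± 0.11, and Sparc, a collagen-binding glycoprotein, had -0.26 ± 0.16. Tnc, which encodes tenascin-C, had 0.52 ± 0.26 (adjusted p = 0.276).

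Thbs2, an inhibitor of angiogenesis, was at -3.62, -2.44, -4.89 and -3.16 on the GFP-negative arrays and at -2.84, -2.06, -3.28 and -1.04 on the GFP-positive ones. It was well above background on 7 of the 8 arrays, the groups overlapped, and the difference was 1.22 ± 0.62 (adjusted p = 0.278). Postn, which encodes periostin, was above background on 6 arrays and had a difference of 0.30 ± 0.81. Its 95% interval, -1.58 to 2.17, spans a fold of 0.335 to 4.5.

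The elastic fibre genes and the oxidases that cross-link collagen and elastin had 1 positive and 5 negative differences, none past the test. Fbn1, which encodes fibrillin-1, was at -1.24, 0.83, -0.05 and 0.42 on the GFP-negative arrays and at -1.09, -0.63, -2.19 and 0.17 on the GFP-positive ones. The groups overlapped, with a difference of -0.93 ± 0.58 and an adjusted p of 0.377. Fbln2 had the positive difference, 0.57 ± 0.24 (adjusted p = 0.209), and Fbln1 had -0.09 ± 0.32. Loxl1 and Loxl2 had -0.36 ± 0.53 and -0.35 ± 0.23. Eln, which encodes elastin, was not tested: it was above background on 3 GFP-positive arrays and no GFP-negative array, with means of -5.06 and -6.04. The groups overlapped, with GFP-negative replicate 4 (-5.34) above GFP-positive replicates 1 (-5.40) and 4 (-5.66). Its GFP-positive mean was 1.55-fold above the detection limit of the GFP-negative arrays, which is no lower bound.

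Among the proteoglycans, Dcn had the largest difference. Dcn encodes decorin, which binds collagen fibrils and growth factors, and was at -1.19, -0.16, -0.98 and -2.53 on GFP-negative replicates 1 to 4 and at -2.93, -3.37, -3.49 and -2.06 on the GFP-positive ones. GFP-negative replicate 4 lay below GFP-positive replicate 4, which alone made the groups overlap. The difference was -1.75 ± 0.51, a ratio of 0.298 (95% interval 0.131 to 0.677), and with an adjusted p of 0.104 it did not pass. Lum, the neighbour of Dcn, was well above background on 0 of the 8 arrays.

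Bgn, which encodes biglycan, was at 0.34, 1.99, 1.22 and 2.42 on the GFP-negative arrays and at 0.28, 1.67, -0.57 and 1.34 on the GFP-positive ones, a difference of -0.81 ± 0.60 (adjusted p = 0.454). Vcan, which encodes versican, had -0.01 ± 0.31. Vim, the mesenchymal intermediate filament gene, was at 6.44, 7.32, 6.94 and 7.50 and at 6.05, 6.80, 5.22 and 6.96. The groups overlapped, and its difference of -0.79 ± 0.41 had an adjusted p of 0.281.

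The spread between arrays of one group was wide for many of these genes and smaller for others. The SD within a group, pooled over both groups, had a median of 0.51 over the 36 members and 0.18 over all genes. It exceeded 1 for 8 members, 22.2%, against 1.6% of all genes: Col1a1 (1.93), Col3a1 (1.85), Col6a3 (1.77), Col1a2 (1.68), Col6a2 (1.62), Postn (1.32), Col6a1 (1.25) and Thbs2 (1.01). At the other end of the members were Lama5 (0.09), Fn1 (0.12) and Col18a1 (0.13). Among genes of similar level, 28.3% had a lower SD than Lama5, 61.6% than Fn1 and 54.2% than Col18a1. The probes of Col1a1, Col1a2, Col3a1 and the type VI chains were well above background on all 8 arrays.

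**Figure D3:**
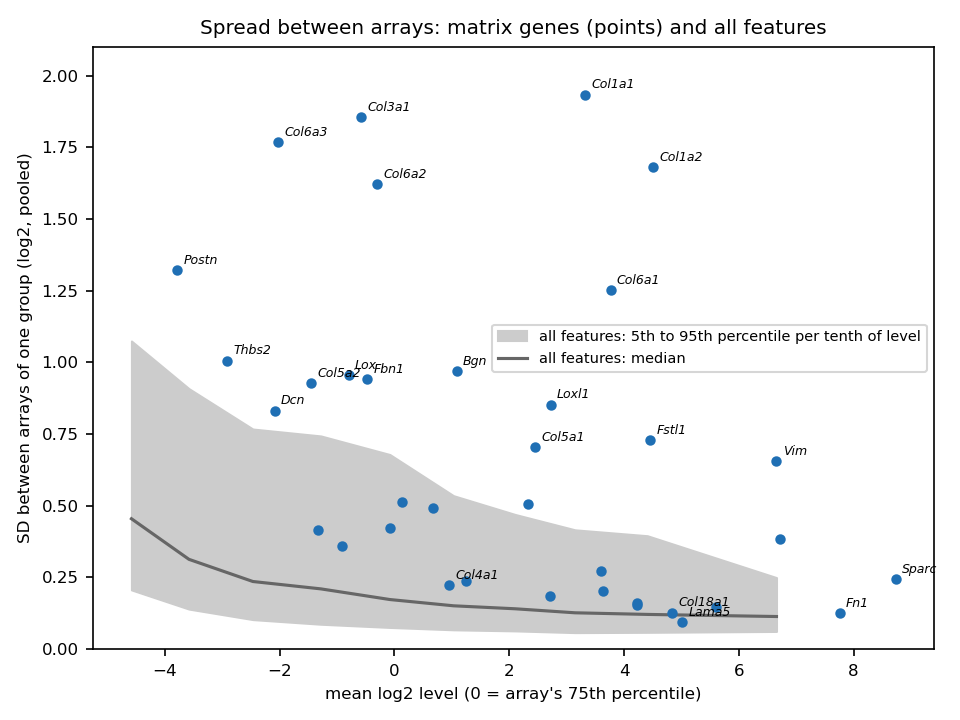
SD between arrays of one group (log2, pooled over both groups) against mean log2 level for the 36 tested matrix genes (points), with the median and the 5th to 95th percentile of all genes in bins of equal gene number by level (line and band). Col1a1 at 1.93 and several other collagens lie above the band, and Lama5 and Col18a1 lie within it.

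Many of the members with wide spread ordered the arrays alike. Col1a1, Col1a2, Col3a1, Col5a1, Col6a1, Col6a2, Col6a3, Lamc1, Postn, Fbn1 and Loxl1 had the same order within both groups: replicates 1, 3, 4 and 2 from low to high in GFP-negative cells, and 3, 1, 2 and 4 in GFP-positive cells. That is 11 of 36 members (30.6%), and 601 of 19716 genes (3.05%). GFP-positive replicate 3 was the lowest of its group and GFP-negative replicate 1 the lowest of its own for 17 members (47.2%), and for 16.3% of all genes. GFP-positive replicate 3 was the lowest of all 8 arrays for 18 members, and GFP-negative replicate 2 was the highest for 13.

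**Figure D4:**
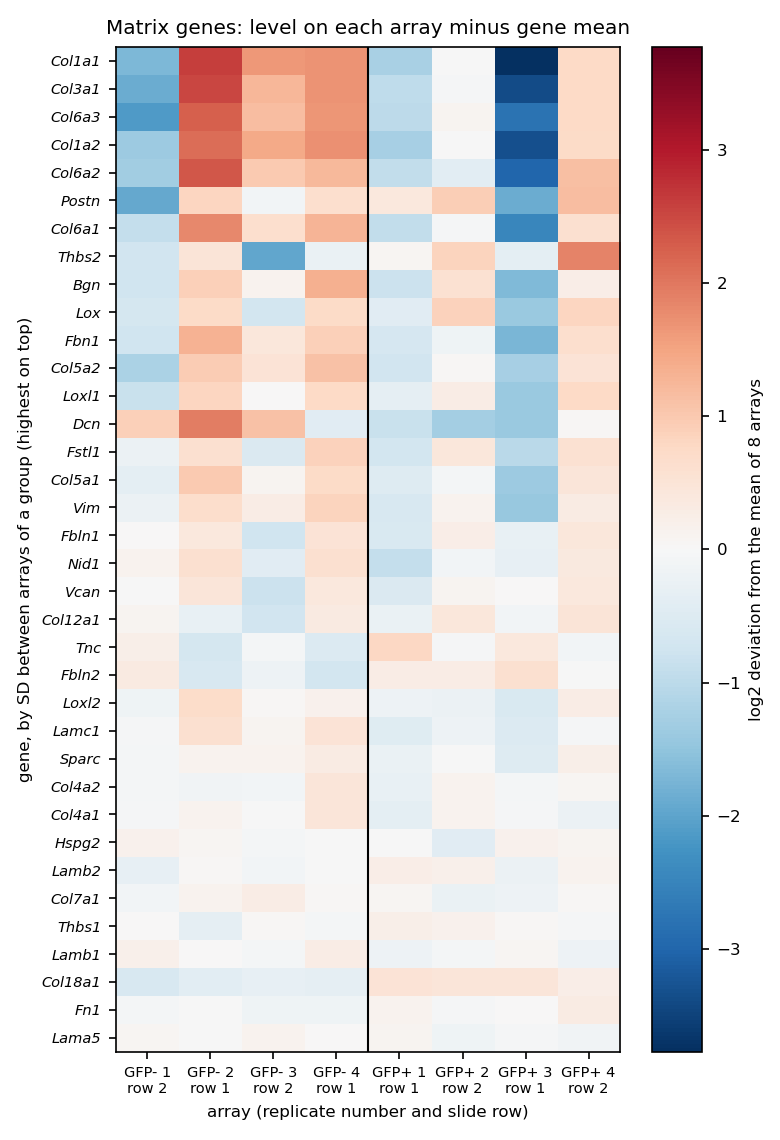
Log2 level on each array minus the gene's mean over the 8 arrays (colour) for the 36 tested matrix genes, ordered by spread, with the replicate number and slide row of each array. The collagens at the top are low on GFP-negative replicate 1 and GFP-positive replicate 3 and high on GFP-negative replicates 2 and 4, and Col18a1 near the bottom follows the GFP groups.

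Marker lists also differed between these arrays. The mean level of 16 epithelial markers on GFP-negative replicates 1 to 4 was 2.98, 2.07, 2.93 and 2.11, and on the GFP-positive ones 3.29, 3.00, 3.44 and 2.62. It was highest on GFP-positive replicate 3, where the 5 fibrillar collagens had their lowest mean of -0.96, and lowest on GFP-negative replicate 2, where they had their highest of 3.49. The mean of 9 mesenchymal transition factors such as Zeb1 and Twist2 was 1.29, 2.07, 1.49 and 2.20 in GFP-negative and 1.02, 1.57, 0.76 and 1.69 in GFP-positive cells.

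Of 12 fibroblast markers, 9 were tested, and the mean level of those ranged from 0.21 to 0.86 over GFP-negative and from -0.17 to 0.88 over GFP-positive arrays. Pdgfra, Pdgfrb, Acta2, S100a4, Twist1, Prrx1 and Cxcl12 were above background on all 8 arrays. The lists share genes, so their means are not separate: Twist1 and Prrx1 are also among the transition factors. Acta2 is also on the list of pericytes and smooth muscle, and Mfap5 and Cspg4 are also among the other matrix genes below. Pdgfrb, a growth factor receptor of fibroblasts and pericytes, was at 0.11, 2.45, 1.64 and 2.70 on GFP-negative and 0.42, 1.70, -1.38 and 1.94 on GFP-positive replicates 1 to 4. As with Col1a1, its lowest arrays were GFP-negative replicate 1 and GFP-positive replicates 1 and 3. Others on the list went otherwise: Cxcl12 was highest of all on GFP-negative replicate 1 (2.58), and Mfap5 on GFP-positive replicate 3 (-3.31). Mfap5 was well above background on 6 arrays. Of the 9 tested, 4 had a positive difference between the GFP groups and 5 a negative one. Fap, Dpt and Tcf21, which mark resident and activated fibroblasts, were above background on 0 arrays. Of 8 pericyte and smooth muscle markers, 5 were tested, with a mean of 0.33 to 0.87 over GFP-negative and 0.65 to 1.27 over GFP-positive arrays, and Myh11 was above background on 0 arrays. Rgs5 and Des were above background on 1 and 2 arrays. The 1 call on this list was Notch3, which rose 5.71-fold (adjusted p = 0.00216), from -0.25, -0.54, -0.05 and -1.06 to 2.30, 1.64, 2.29 and 1.92. That call held without each array. Cspg4 went the other way, with a difference of -1.29 ± 0.76 (adjusted p = 0.349), and the 5 differences were 3 positive and 2 negative. Of the endothelial markers, 3 of 8 were tested, with Kdr and Esam above background on 8 arrays and Pecam1 on 6, and Cdh5, Tek, Emcn and Tie1 were above background on 0 arrays. Of the leukocyte markers, 3 of 8 were tested, Itgam and Csf1r being above background on 8 arrays and Ptprc on 1. The endothelial mean ranged from -2.15 to -1.50 over GFP-negative and -2.08 to -1.43 over GFP-positive arrays, and the leukocyte mean from 1.54 to 1.98 and 1.58 to 1.98. The part of these markers in the spread of the collagens was not tested.

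The 8 arrays lay on 1 slide in 2 rows, each with 2 GFP-positive and 2 GFP-negative arrays. Row 1 held replicates 2 and 4 of the GFP-negative group with replicates 1 and 3 of the GFP-positive group, and row 2 held the other four. In row 1 the median difference over the members was -0.96 and in row 2 it was 0.36, while over all genes the medians were -0.06 and -0.05. The difference was negative in row 1 and positive in row 2 for 24 of 36 members, and for 4399 of 19716 genes. Col1a1 had a difference of -4.65 in row 1 and 0.40 in row 2, Col3a1 -4.27 and 0.66, Col6a3 -3.83 and 0.90, Postn -1.46 and 2.05, and Thbs2 -0.26 and 2.70. Col18a1, with 0.84 and 0.80, and Dcn, with -1.86 and -1.63, were close to equal in both. The GFP differences of marker lists also differed between rows. For the 16 epithelial markers the median difference was 1.21 in row 1 and -0.23 in row 2. Of these markers 7, Epcam and Cdh1 among them, passed the test between rows, against 1.22% of all genes. In both groups the mean level of the epithelial markers was higher on replicates 1 and 3 than on replicates 2 and 4. For the 9 mesenchymal transition factors the medians were -1.17 and 0.14, and 2 passed, Snai1 and Twist2. Of the 9 fibroblast markers 1 passed, Pdgfra, with -2.83 in row 1 and 0.41 in row 2 (adjusted p = 0.0343). The row calls of these marker lists were not repeated with arrays left out. The part of the markers in the row differences of the matrix genes was not tested.

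**Figure D5:**
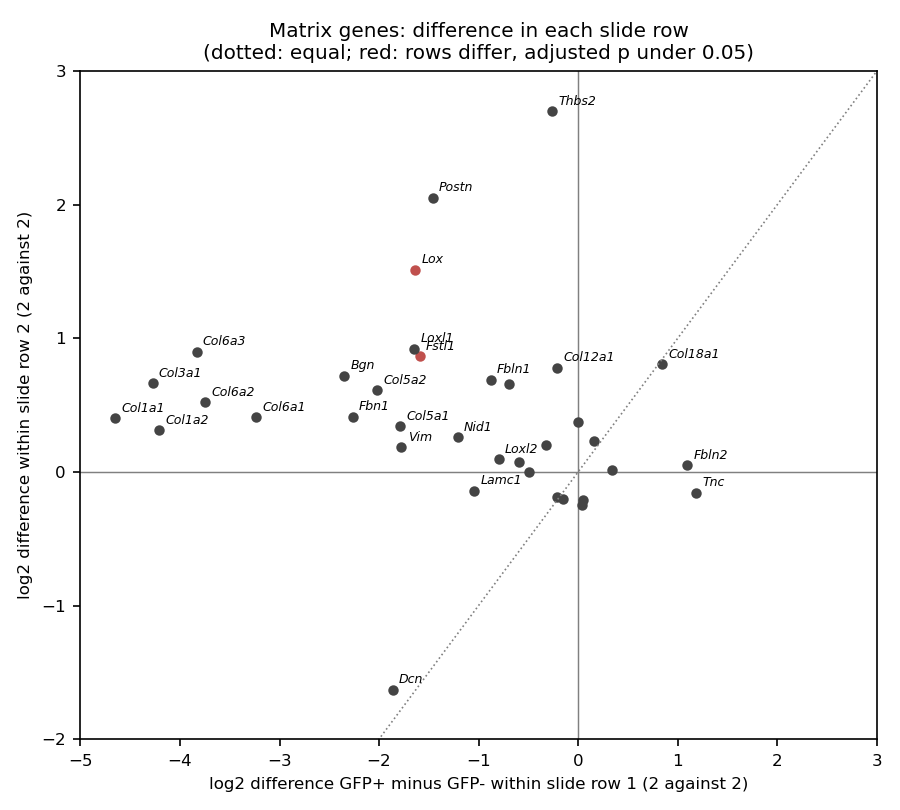
Log2 difference, GFP-positive minus GFP-negative, within slide row 1 (horizontal axis) and within slide row 2 (vertical axis), 2 arrays against 2 in each, for the 36 tested matrix genes; the dotted line marks equality. Most points lie left of zero and above it, Col18a1 (0.84 and 0.80) lies near the line, and Fstl1 and Lox (red) passed the test of the difference between rows.

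The difference between the rows passed the test for Fstl1 and Lox, and for 1.22% of all genes. Fstl1, a secreted relative of follistatin, was at 4.24, 5.07, 3.92 and 5.32 on GFP-negative replicates 1 to 4 and at 3.76, 4.87, 3.44 and 5.03 on the GFP-positive ones. In both groups replicates 2 and 4 were high and replicates 1 and 3 low, so the group means were 4.63 and 4.27 and the difference -0.36 ± 0.45 did not pass. The row 1 difference was -1.59 and that of row 2 was 0.87, apart by -2.46 ± 0.25 (adjusted p = 0.035).

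Lox, which encodes lysyl oxidase, was at -1.45, -0.06, -1.48 and -0.06 on the GFP-negative arrays and at -1.21, 0.07, -2.18 and 0.02 on the GFP-positive ones. Again replicates 2 and 4 were the high arrays of both groups. The row differences of -1.64 and 1.51 were apart by -3.15 ± 0.41 (adjusted p = 0.0414), with -0.06 ± 0.59 over all arrays. A second Lox probe gave -1.84 and 1.67.

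The difference between the rows is, over both groups, the same contrast as replicates 1 and 3 against replicates 2 and 4, so these cannot be told apart. The high arrays of Fstl1 and Lox lay in row 1 in the GFP-negative group and in row 2 in the GFP-positive group. The Fstl1 call was lost without any one of the 8 arrays, with adjusted p from 0.0524 to 0.142. The Lox call remained only without GFP-positive replicate 1 (adjusted p = 0.0388) and was otherwise lost, with adjusted p up to 0.151. With normexp background correction 9 members passed: Bgn, Fbln1, Fstl1, Lamc1, Lox, Loxl1, Thbs2, Tnc and Vim. The share of all genes that passed between rows in that setting was not counted, so these 9 cannot be set against it.

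Within row 1 alone, limma called Col18a1, Fbln2 and Tnc higher and Bgn, Col5a2, Fstl1 and Lamc1 lower, against 3.18% of all genes higher and 2.15% lower. There the GFP-positive arrays were replicates 1 and 3 and the GFP-negative ones replicates 2 and 4. Within a row, a GFP difference cannot be told apart from a difference between those replicate sets. Fstl1, for one, was low on replicates 1 and 3 in both groups. In row 1, 23 members and 5118 genes had an unadjusted p under 0.05. Within row 2 alone limma called 0 of 19716 genes (0%), and at an unadjusted p under 0.05 there were 7 members and 2148 genes.

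Of 11 members with more than 1 kept probe, the sign of the difference was the same over the probes of 8 and differed in Fbln1, Hspg2 and Vcan. Loxl1, an oxidase needed for elastic fibres, and Tnc are shown by their probes, since the probes of each pair lie apart in the gene. On GFP-negative replicates 1 to 4 the first Loxl1 probe was at 1.88, 3.54, 2.73 and 3.46 and the second at 0.26, 1.77, 1.02 and 1.79. On the GFP-positive arrays the first was at 2.39, 2.99, 1.32 and 3.47 and the second at 0.70, 1.26, -0.41 and 1.60. The Tnc probes gave differences of 0.52 ± 0.26 and 0.71 ± 0.31, both uncalled.
Loxl1 first probe, chr9:58138570-58138629 (mm9): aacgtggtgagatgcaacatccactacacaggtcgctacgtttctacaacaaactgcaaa
Loxl1 second probe, chr9:58145451-58145510 (mm9): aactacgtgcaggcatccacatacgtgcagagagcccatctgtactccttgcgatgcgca
Tnc first probe, chr4:63674248-63675011 (mm9): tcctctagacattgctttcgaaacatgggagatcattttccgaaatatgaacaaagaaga
Tnc second probe, chr4:63643728-63643787 (mm9): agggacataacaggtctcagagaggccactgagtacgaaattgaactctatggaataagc

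Promoter windows are shown for the called member Col18a1, for Fstl1, whose rows differed, and for Col1a2, Col3a1 and Col6a1, which ordered the arrays alike. Each is the 250 bases before the RefSeq start site at the outer edge of the gene (GRCm38.p6), and capitals mark matches on either strand to any of 6 short motifs, none of which overlap in these windows. The CCAAT box was searched by the letters of its name and the GC box as GGGCGG. The TATA box was searched as TATAAA and the binding site of the AP-1 factors as TGANTCA. The SMAD element was searched as CAGACA and the E-box bound by ZEB and SNAI factors as CACCTG.
Col1a2, chr6:4505368-4505617, plus strand: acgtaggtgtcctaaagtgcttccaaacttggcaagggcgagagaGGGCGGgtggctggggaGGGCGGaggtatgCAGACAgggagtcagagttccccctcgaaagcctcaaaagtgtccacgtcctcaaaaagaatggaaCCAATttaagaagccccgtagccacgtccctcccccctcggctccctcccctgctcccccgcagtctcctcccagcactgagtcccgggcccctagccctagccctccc
Col3a1, chr1:45311288-45311537, plus strand: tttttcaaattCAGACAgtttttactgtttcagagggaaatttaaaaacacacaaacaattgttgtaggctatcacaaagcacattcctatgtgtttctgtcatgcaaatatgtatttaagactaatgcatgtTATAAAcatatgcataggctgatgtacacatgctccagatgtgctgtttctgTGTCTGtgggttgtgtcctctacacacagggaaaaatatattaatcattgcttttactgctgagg
Col6a1, chr10:76726045-76726294, minus strand: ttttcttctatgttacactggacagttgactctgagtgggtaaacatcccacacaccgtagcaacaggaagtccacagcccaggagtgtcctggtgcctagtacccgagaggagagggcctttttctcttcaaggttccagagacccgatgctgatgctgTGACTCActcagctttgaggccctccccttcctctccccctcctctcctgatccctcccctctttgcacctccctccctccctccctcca
Fstl1, chr16:37776805-37777054, plus strand: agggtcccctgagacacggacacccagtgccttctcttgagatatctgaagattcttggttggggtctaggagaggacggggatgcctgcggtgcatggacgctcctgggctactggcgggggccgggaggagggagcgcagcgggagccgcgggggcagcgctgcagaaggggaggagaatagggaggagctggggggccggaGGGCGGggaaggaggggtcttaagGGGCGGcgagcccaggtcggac
Col18a1, chr10:77166531-77166780, minus strand: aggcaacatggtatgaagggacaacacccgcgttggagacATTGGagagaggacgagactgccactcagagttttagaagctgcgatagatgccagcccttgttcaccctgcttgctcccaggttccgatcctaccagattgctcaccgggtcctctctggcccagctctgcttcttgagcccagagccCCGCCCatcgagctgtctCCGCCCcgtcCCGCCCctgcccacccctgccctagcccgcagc

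In Col1a2 a CCAAT box began 109 bases before the start, with GC boxes at 205 and 188 and a SMAD match at 175. The Col3a1 window held a TATA box match at 117 and SMAD matches at 239 and 65, and that of Col6a1 held an AP-1 match at 90. Fstl1 had GC boxes at 46 and 22, and Col18a1 had a CCAAT box at 210 and GC boxes at 61, 43 and 33. A second Col18a1 start in the table, not shown, holds a SMAD match. The table held 31 promoters of 26 members. GGGCGG was in 61.3% of these and 32.7% of all 32851 promoters of that length, CAGACA in 35.5% and 17.1%, and TATAAA in 19.4% and 12.4%. CCAAT was in 32.3% and 33.8%, TGANTCA in 3.23% and 6.75%, and CACCTG in 3.23% and 17.2%. A match is a string of letters and no measure of binding.

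Genes that make, hold or accompany this matrix were taken from lists of each pathway. Of 28 genes of collagen synthesis, folding and processing, 26 were tested, with a median difference of -0.22. Plod2, the lysyl hydroxylase that prepares collagen telopeptides for cross-linking, rose by 0.88 ± 0.15, or 1.85-fold (adjusted p = 0.0291), from 0.19, 0.05, -0.19 and 0.07 to 0.94, 0.72, 1.31 and 0.70. Plod1, the lysyl hydroxylase of the helix, fell by 0.44 ± 0.09 (adjusted p = 0.0414), from 0.25, 0.35, 0.19 and 0.24 to -0.29, -0.18, -0.28 and -0.01. The GFP groups did not overlap for either, which held for 5 of the 26 tested genes (19.2%) and for 16.7% of all genes. Of all genes, 1.82% were called higher and 0.741% lower. The Plod2 call was lost without GFP-negative replicate 2, 3 or 4 or GFP-positive replicate 1 (adjusted p up to 0.106), and that of Plod1 without any array but GFP-positive replicate 4 (adjusted p up to 0.146).

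Of 24 matrix receptors, 23 were tested and limma called 0, and at an unadjusted p under 0.05 there were 3 higher and 3 lower, against 23% of all genes in either direction. Itgb4, the integrin chain of hemidesmosomes, had a difference of 1.46 ± 0.38 (adjusted p = 0.0814), and Cd47, a thrombospondin receptor, had -0.36 ± 0.10 (adjusted p = 0.0876). The limma test between rows called Ddr2, a collagen receptor kinase, Sdc2 and Mrc2, the last a receptor for collagen uptake. It called 1.22% of all genes, and these receptor calls were not repeated with arrays left out.

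Of 48 other matrix genes, 35 were tested. Col2a1, the cartilage fibrillar collagen, was at -2.62, -2.81, -3.51 and -3.28 on the GFP-negative arrays and at -0.63, -1.12, -0.44 and -1.38 on the GFP-positive ones. All GFP-positive arrays were above all GFP-negative ones, and Col2a1 rose 4.48-fold (adjusted p = 0.0071). The GFP groups did not overlap for 5.71% of the tested genes of this list and 16.7% of all genes. The limma test between rows called Col11a1 (adjusted p = 0.0473), Efemp1 (0.0381), Tgfbi (0.0374) and Agrn (0.0374), against 1.22% of all genes. Col11a1 and Efemp1 were well above background on 5 arrays. These row calls were not repeated with arrays left out.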

How the data were processed

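Each deposited file held 1 array's scanner output from Agilent Feature Extraction 10.7.3.1, run with protocol GE1_107_Sep09 and with positions on build mm9, per the file headers. The deposited intensity column used was the processed signal, already background-corrected by the extraction program. What the authors did afterwards is not stated in the sources used here. Spots flagged as non-uniform or population outliers (106 to 186 per array) were dropped, the log2 signal was set relative to each array's 75th percentile over non-control spots, and spots of a probe were averaged. Probes detected well above background on 4 or more of 8 arrays were kept (27600), and the brightest kept probe stood for a gene (19716). No spot was saturated. limma 3.58.1 in R 4.3.3 (lmFit and eBayes, two-sided, no replicate block) was used, with Benjamini-Hochberg adjustment. The same fit with a term for slide row and its interaction tested the rows. The steps were tested on simulated data with independent noise for each gene and array. That setting lacks the array order shared by some members here, so it cannot show how the fits handle it. Errors beside differences are SEs, and the number of arrays limits precision. Symbols followed RefSeq (GRCm38.p6) where a probe's accession matched, for 27509 of 55681 probes. Which exon or untranslated region a probe reads was not analysed here. Alternatives were other background corrections, normalizations, filters, probe rules, blocks, weights and priors, and leaving out each array. Members, roles, lists and tests were chosen with earlier results of these data known. All members are named. Array values are given for members called in either test and for the 12 next largest differences. From each pathway list up to 4 called genes were named, or otherwise the 2 with the smallest p. Other genes were named after their values were seen.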

Additional observations from a re-analysis of the deposited data

Results flagged for a closer look

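The Col4a2 level of GFP-negative replicate 4, 1.69, stood apart from the nearest GFP-negative array at 1.17. It was 1 of 72 groups of 4 arrays examined that had such a gap, and chance gives about 1 in 20. For Fstl1 the difference in slide row 1 minus that in row 2 was -2.46, and for Lox it was -3.15, both past the threshold of the test between rows.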

How the results depend on the processing

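The Col18a1 call held with normexp, quantile normalization, the other percentile, both filters, the mean of all probes, the slide row block, array weights, another prior and without each array. With the replicate block it had an adjusted p of 0.0546, so 0 members were called, and 1 member probe. No label pairs same-numbered arrays. Over all genes, their deviations from the group means correlated at -0.03, 0.07, 0.02 and 0.18. Of the 4 GFP-negative arrays, 0 matched the GFP-positive array of their own number best. These values do not settle whether the numbers pair the samples. Fstl1 ordered replicates 3, 1, 2 and 4 from low to high in both groups, and its adjusted p went from 0.674 to 0.15 with the block. The block gave 189 genes higher and 26 lower over all genes, 0 higher and 0 lower in collagen synthesis, and 1 receptor higher. Without a dim-probe filter 152 genes were higher and 2 lower, and with probes detected on all 8 arrays 323 were lower. The slide row block gave 38 lower, and 0 lower in collagen synthesis. Array weights gave 675 and 773, and a trended robust prior 629 lower. Normexp gave 362 lower, quantile normalization 82 and the other percentile 64. Row 1 alone gave 627 and 423 with 3 and 4 members and a median of -0.96, and row 2 alone 0 and 0 with 0 members and a median of 0.36. Normexp called 1 member higher and 8 lower between rows, with the share of all genes not counted, and 1 receptor lower between the GFP groups. Causes were not tested. Leaving out 1 array gave 147 to 304 genes higher and 4 to 120 lower, 1 member higher and 0 lower each time, a member median of -0.36 to -0.14, 0 to 1 members lower between rows, 0 to 1 higher and 0 to 1 lower in collagen synthesis, and 1 to 2 other matrix genes higher. The difference was then negative for 23 to 28 members. Signals near background, as of Postn and Thbs2, are the least certain.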
